A study of Mus musculus with 6 samples.

Results

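The Ly6 genes described here are Ly6a, which encodes the sorting marker Sca-1, and its relatives Ly6e, Ly6c1, Ly6c2, Ly6d, Ly6i and Ly6k on chromosome 15. They were taken by name from the deposited tables, and all 7 were found among 24063 gene symbols. RNA sequencing was performed on LSK cells, the Lineage- c-Kit+ Sca-1+ fraction of mouse bone marrow in which blood stem cells and early multipotent progenitors are found. The groups were 3 Asxl2-/- samples, from Mx1-cre Asxl2fl/fl mice, and 3 control samples, from Mx1-cre mice with wild-type Asxl2. Both groups carried Mx1-cre on a C57BL/6 background, and both were given pIpC, a synthetic double-stranded RNA, 4 weeks before the cells were harvested per the methods of the study. Ages were not given in the sources used here, and the sources do not say whether each sample was 1 mouse, so the p-values below measure the spread between these samples. In this model the Mx1 promoter that drives Cre responds to interferon, and pIpC is itself an inducer of interferon, so every sample had been exposed to an inducer of the pathway that controls several Ly6 genes.

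Ly6 proteins are small, cysteine-rich proteins that fold into a three-finger domain and are held on the outer face of the cell membrane by a glycosylphosphatidylinositol (GPI) anchor. Ly6a, Ly6e and the Ly6c genes are known to respond to type I and type II interferon, and their products are used across haematology as surface markers. Sca-1 separates stem and multipotent cells from more committed progenitors in the marrow of C57BL/6 mice, Ly6C is carried by monocytes and some other leukocytes, and Ly6D marks lymphoid progenitors that have entered the B-cell path.

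The Ly6c1 and Ly6c2 genes must be read together, because parts of their transcripts are the same. In the GENCODE vM1 transcripts, their coding sequences were identical at 387 of 396 bases (97.7%), and the longest run without a difference between the transcripts was 188 bases. Bases 1 to 120 of the coding sequence, counted from the start codon, are shown because they hold 6 of its 9 differences, in capitals.
Ly6c1: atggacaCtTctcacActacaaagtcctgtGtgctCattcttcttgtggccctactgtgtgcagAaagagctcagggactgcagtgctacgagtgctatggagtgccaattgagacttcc
Ly6c2: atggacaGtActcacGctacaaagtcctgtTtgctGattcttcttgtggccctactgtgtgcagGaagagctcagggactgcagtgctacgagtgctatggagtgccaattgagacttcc
Of the 100-base windows of each transcript, close to the length of a read in the study, 114 of 741 (15.4%) of Ly6c1 and 114 of 697 (16.4%) of Ly6c2 were found in the other gene. No such window of Ly6a, Ly6e, Ly6d, Ly6i or Ly6k occurred in another protein-coding gene of that annotation. The next closest pair was Ly6a and Ly6i, with coding sequences identical at 86.4% of aligned positions and a longest shared run of 80 bases. Ly6a was 82.0% identical to Ly6c1 and 81.7% to Ly6c2, whereas Ly6e, Ly6d and Ly6k were 46.8% to 53.8% identical to the other members and to each other. Counts of Ly6c1 and Ly6c2 are therefore given as uncertain in how reads were divided between them.

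Promoter sequences were matched for 2 of the 7 members, Ly6c1 and Ly6c2, in a RefSeq table on GRCm38.p6, where both genes lie on the minus strand. The 250 bases before the outermost start site are shown because the counts of both genes varied together between the libraries. Those counts are uncertain in how reads were divided between the genes. The motif matches described next are in capitals.
Ly6c1, chr15:75048838-75049087: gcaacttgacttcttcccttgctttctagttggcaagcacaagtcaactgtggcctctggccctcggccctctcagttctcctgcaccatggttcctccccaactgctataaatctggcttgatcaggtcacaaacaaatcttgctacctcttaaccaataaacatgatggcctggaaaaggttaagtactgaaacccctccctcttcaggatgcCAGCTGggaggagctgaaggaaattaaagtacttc
Ly6c2, chr15:75111972-75112221: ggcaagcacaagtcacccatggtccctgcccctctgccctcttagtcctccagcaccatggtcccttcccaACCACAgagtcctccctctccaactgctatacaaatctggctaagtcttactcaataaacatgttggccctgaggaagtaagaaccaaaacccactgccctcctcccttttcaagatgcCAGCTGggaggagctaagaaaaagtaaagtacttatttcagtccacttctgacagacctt
The table lists another start site for each gene, further along the transcript, from which the same matches are farther away. Windows of 300 bases, reaching 50 bases past the start, were searched on both strands. An interferon-stimulated response element written as GAAANNGAAA was found in none of the 4 windows. The E-box CAGCTG, which does not overlap the other matches, began 35 bases before the start of Ly6c1 and 60 bases before that of Ly6c2. The RUNX motif TGTGGT was found once, on the opposite strand 179 bases before the start of Ly6c2, where it reads ACCACA. From the other listed starts, the E-box lies 209 bases before that of Ly6c1 and 94 before that of Ly6c2, and the RUNX motif 213 before that of Ly6c2. Of 32851 promoter windows of that length, 3.44% held the first motif, 16.3% the E-box and 16.8% the RUNX motif, so the matches are common letters and describe these windows only.

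Total counts per library ran from 25528540 to 29136012 in Asxl2-/- replicates 1 and 3 and control replicate 2, whose deposited tables hold 1 count per transcript (gene-count files). They ran from 53147729 to 55032075 in Asxl2-/- replicate 2 and control replicates 1 and 3, whose tables hold 1 count per exon (exon-count files). In the latter, reads over a splice junction can add to several exons, so the kind of file entered the main fit as a covariate. Of the counts of Asxl2, 0.583% lay in exon 11, the exon deleted by Cre, in Asxl2-/- replicate 2, compared with 10.3% and 11.99% in control replicates 1 and 3. The gene-count files do not resolve this exon. The groups also differed in sex. Xist had 49540 to 66689 counts in the Asxl2-/- libraries and 590 to 3194 in the controls, and the Y-linked Ddx3y, Eif2s3y, Kdm5d and Uty had 0 to 2 counts against 1026 to 4807. Genotype and sex therefore cannot be told apart in any comparison below. Kit, the other positive sorting marker, was at 280.0 to 431.4 CPM (counts scaled to the normalised library size) in all 6 libraries, and its log2 fold change was 0.23 (SE 0.184, edgeR adjusted p = 0.453).

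None of the 7 Ly6 genes differed between Asxl2-/- and control LSK cells beyond the spread between samples. All 7 passed the filter on low counts, and 0 had an edgeR adjusted p under 0.05, against 331 of 14145 genes tested (2.34%, with 2.04% raised and 0.304% lowered). At an unadjusted p under 0.05 the count was again 0 of 7, against 27.7% of all genes, and DESeq2 and limma-voom with the same design also called 0 members, where they called 17.1% and 3.04% of all genes. Of the 7 log2 fold changes, 6 were negative and 1 positive, with a median of -0.68 against 0.00052 over all genes tested. The pattern that the members did show lay among the wild-type samples. Control replicate 2 had the highest CPM of the 6 libraries for 5 of 7 members, Ly6a, Ly6e, Ly6c1, Ly6c2 and Ly6i. It did so for 19.2% of all genes. Control replicate 1 had the lowest for 4 of 7, Ly6a, Ly6e, Ly6c1 and Ly6c2, and for 1973 of the 14145 genes tested. Fewer cells carrying a transcript and less of it per cell cannot be told apart in these bulk samples.

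**Figure D1:**
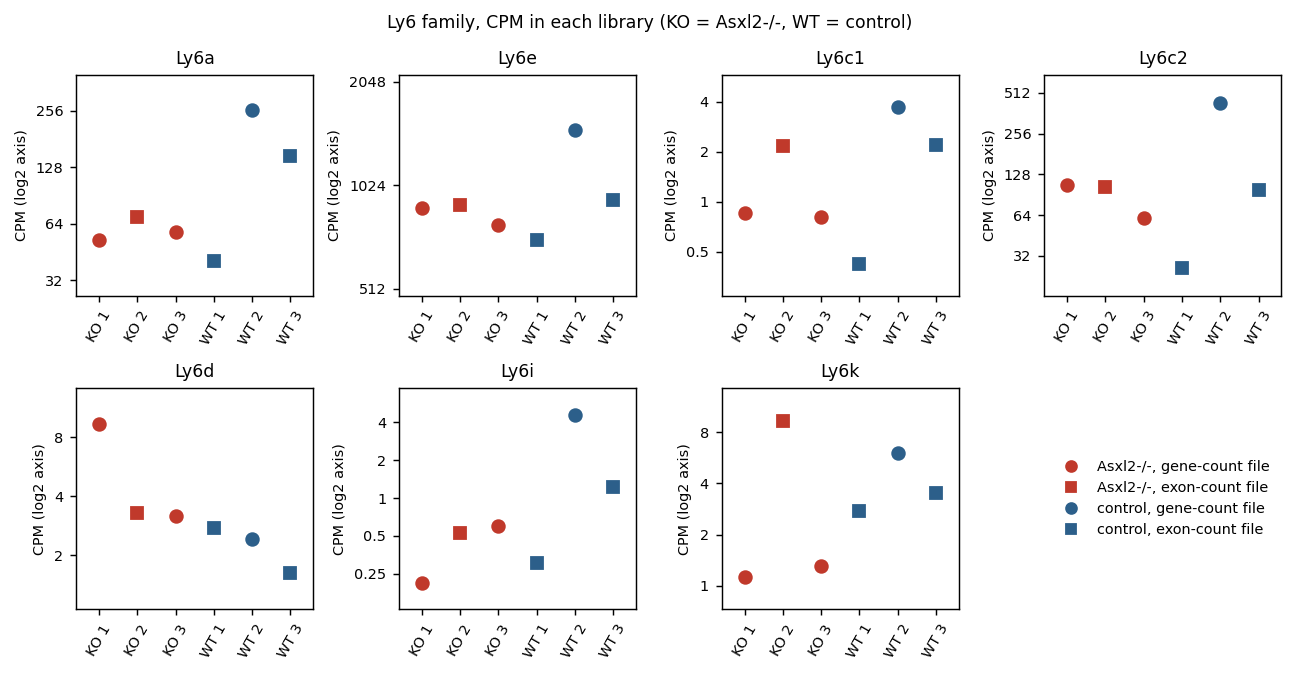
CPM (log2 axis) of each of the 7 Ly6 genes in the 6 libraries, with Asxl2-/- in red, control in blue, circles for gene-count files and squares for exon-count files. For Ly6a the controls lie at 40.5, 259.8 and 147.7 CPM, below and above the 3 Asxl2-/- libraries at 52.6 to 69.1 CPM.

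Ly6a (NM_001271416, chromosome 15, 74994877 to 74998031 on mm10, 4 exons, 1002 bases) encodes Sca-1, the protein by which every cell in these libraries was sorted. Its counts were 1483, 3677 and 1633 in Asxl2-/- replicates 1 to 3, and 2109, 7479 and 7002 in control replicates 1 to 3. These counts correspond to 52.6, 69.1 and 57.6 CPM in the Asxl2-/- libraries and 40.5, 259.8 and 147.7 CPM in the controls. The Asxl2-/- libraries lay within 1.31-fold of each other, whereas the controls spanned 6.42-fold, with control replicate 1 below and control replicates 2 and 3 above all of the Asxl2-/- samples. With the effect of the file kind removed, the level was 5.77 ± 0.60 log2 CPM in Asxl2-/- cells and 6.98 ± 1.11 in control cells (SD, n = 3 each). The log2 fold change was -1.34 (SE 0.562, edgeR adjusted p = 0.187), with an unadjusted p of 0.0535. The difference depended on which libraries entered: without Asxl2-/- replicate 2 it was -2.24 (edgeR adjusted p = 0.0789), without control replicate 1 it was -1.76 (edgeR adjusted p = 0.0398), and without control replicate 2 it was -0.43 (edgeR adjusted p = 0.769). These fits called 4.67%, 9.33% and 0.834% of all genes.

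Comparison within 1 kind of file avoids the covariate and shows the same dependence. Among the exon-count files, control replicate 3 had 3.65 times the Ly6a CPM of control replicate 1, and Asxl2-/- replicate 2 lay between them at 1.71 times control replicate 1. Among the gene-count files, control replicate 2 had 4.71 times the mean of Asxl2-/- replicates 1 and 3. The log2 difference between the groups was -0.16 in the exon-count files and -2.24 in the gene-count files, each resting on a lone library for 1 of the groups and thus without a test. Thus the same genotype label stood at low and at high Ly6a within a single kind of file.

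Ly6e (NM_001164036, 74955071 to 74959905, 4 exons, 2281 bases) encodes an interferon-induced surface protein known for its effects on the entry of viruses into cells. It was the most abundant member, at 878.9, 897.7 and 784.8 CPM in Asxl2-/- replicates 1 to 3, and 709.4, 1482 and 929.8 CPM in control replicates 1 to 3. The groups overlapped, since control replicate 1 was the lowest and control replicate 2 the highest of all libraries. Its levels of 9.67 ± 0.29 and 10.02 ± 0.34 log2 CPM in Asxl2-/- and control cells (SD, n = 3 each, file kind removed) gave a log2 fold change of -0.35 with an SE of 0.227 (edgeR adjusted p = 0.350). Without control replicate 2 the sign turned, to 0.14 (edgeR adjusted p = 0.738).

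Ly6c2 (NM_001099217, 75108161 to 75111949, 4 exons, 801 bases) and Ly6c1 (NM_001252055, 75045015 to 75048837, 4 exons, 864 bases) encode the Ly6C antigens. Ly6C is known to be bound also by the Gr-1 antibody clone RB6-8C5, which is among the antibodies the study lists for flow cytometry, without saying which of them made up the lineage stain. Ly6c2 was at 106.6, 102.7 and 61.3 CPM in Asxl2-/- replicates 1 to 3, and at 26.1, 433.3 and 97.7 CPM in control replicates 1 to 3. The controls spanned 16.6-fold, the Asxl2-/- libraries 1.74-fold, and all of the Asxl2-/- values fell between control replicates 1 and 2. Its log2 fold change was -0.82 (SE 0.787, edgeR adjusted p = 0.527) and became 0.74 without control replicate 2. Ly6c1 was far lower, at 0.852, 2.16 and 0.811 CPM in Asxl2-/- and 0.422, 3.75 and 2.21 CPM in control replicates 1 to 3, which rest on 22 to 115 counts. Its log2 fold change was -0.68 (SE 0.812, edgeR adjusted p = 0.615), and 0.73 without control replicate 2. For both genes the difference was negative among gene-count files (-2.42 and -2.11 for Ly6c2 and Ly6c1) and positive among exon-count files (1.02 and 1.10).

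Ly6i (NM_020498, 74979812 to 74983430, 3 exons, 878 bases) is the member closest in coding sequence to Ly6a and lies beside it. Few reads were assigned to it, with 6, 28 and 17 counts in Asxl2-/- replicates 1 to 3 and 16, 133 and 58 in control replicates 1 to 3. This corresponds to 0.213, 0.526 and 0.599 CPM in Asxl2-/- and 0.307, 4.62 and 1.22 CPM in control cells. Control replicate 1 lay among the Asxl2-/- libraries, and the other controls lay above them. The log2 fold change of -2.02 was the largest in size among the members, with the largest SE (0.858, edgeR adjusted p = 0.190), and it ran from -3.50 without Asxl2-/- replicate 2 (edgeR adjusted p = 0.0655) to -0.52 without control replicate 2.

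Ly6d (NM_010742, 74762056 to 74763567, 3 exons, 691 bases), the marker of B-cell-primed lymphoid progenitors, was the member with a positive log2 fold change. It was at 9.37, 3.31 and 3.17 CPM in Asxl2-/- replicates 1 to 3, and at 2.76, 2.43 and 1.62 CPM in control replicates 1 to 3, on 70 to 264 counts. The Asxl2-/- libraries thus all lay above the controls in CPM, by a narrow margin, as the groups were apart for 24.8% of all genes. With the file kind removed the Ly6d groups overlapped, whereas 44.4% of all genes were apart. The log2 fold change was 0.97 with an SE of 0.510 (edgeR adjusted p = 0.263). It was positive among gene-count files (1.15) and among exon-count files (0.63), and it stayed between 0.49 and 1.37 when each library in turn was left out. Of 14 B-lymphoid marker genes, 9 rose in Asxl2-/- cells, as did 2.04% of all genes, and the summed level of the list was 272.4 to 351.7 CPM against 91.07 to 195.4 CPM in the controls, with none of these genes at 0 in all libraries. Their part in the Ly6d values was not tested.

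Ly6k (NM_029627, 74796874 to 74799968, 4 exons, 773 bases) encodes a GPI-anchored protein known from the testis, where it is needed for sperm function. It was at 1.14, 9.36 and 1.30 CPM in Asxl2-/- replicates 1 to 3, and at 2.74, 6.01 and 3.52 CPM in control replicates 1 to 3. In CPM its spread was larger among the Asxl2-/- samples (8.24-fold) than among the controls (2.19-fold), as was that of Ly6d (2.95-fold and 1.70-fold) and of no other member. Asxl2-/- replicate 2 stood above the other libraries, and it came from an exon-count file. Mean counts in the exon-count files were 3.34 times those in the gene-count files for Ly6k, compared with a median of 1.44 over 1413 genes with 3 or 4 exons and 0.654 to 1.56 for the other members. That ratio includes Asxl2-/- replicate 2 itself, with 498 counts. Among the controls, Ly6k had 143 and 167 counts in the exon-count files and 173 in the gene-count file. The log2 fold change was -0.26 (SE 0.812, edgeR adjusted p = 0.867), with -2.26 from gene-count files and 1.57 from exon-count files. Without Asxl2-/- replicate 2 it was -2.30 (edgeR adjusted p = 0.0221, in a fit that called 4.67% of all genes), and without control replicate 2 it was 1.58 (edgeR adjusted p = 0.0795).

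**Figure D2:**
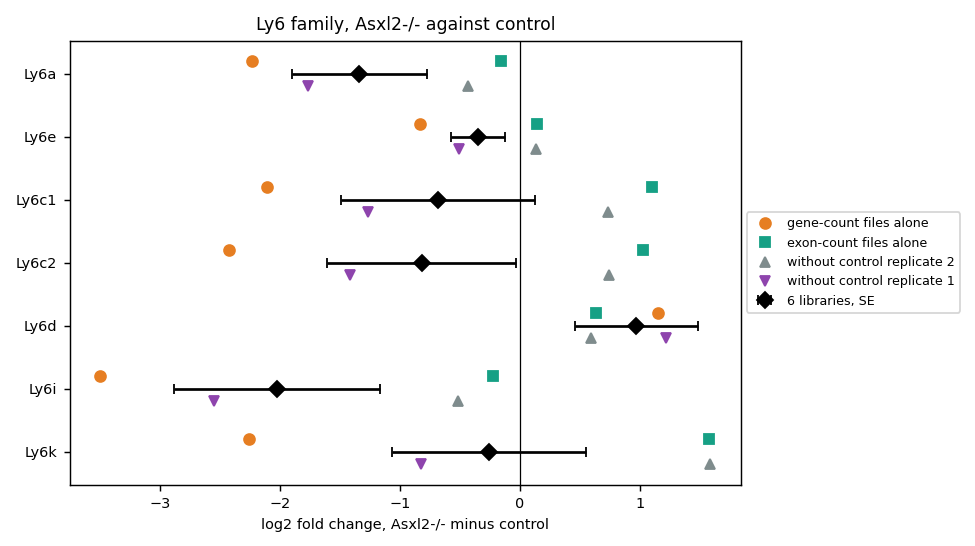
Log2 fold change, Asxl2-/- minus control, of each Ly6 gene: black diamonds with SE from all 6 libraries, orange circles and green squares from gene-count or exon-count files alone, and triangles from fits without control replicate 1 or 2. Ly6e, Ly6c1, Ly6c2 and Ly6k lie on opposite sides of 0 in the 2 kinds of file, while Ly6d stays above 0 in all fits shown.

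In 4 of the 7 members, Ly6e, Ly6c1, Ly6c2 and Ly6k, the sign of the difference was opposite in the 2 kinds of file, as it was for 31.9% of all genes tested. After the file kind was removed, the SD of log2 CPM was larger among controls than among Asxl2-/- samples for 6 of 7 members, Ly6d being the exception, and for 55.9% of all genes. The CPM of control replicate 2 was more than 1.5 times that of control replicate 1 for 6 of 7 members, compared with 16.5% of all genes, and the median ratio was 6.42 for the members and 1.01 over all genes. These libraries differ in file kind as well, and over all genes tested the median ratio of control replicates 3 and 1, which share it, was 1.03 against 3.65 for the members.

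Per kb of transcript, Ly6e was the highest member in every library, at 311.0 to 649.8 CPM per kb. Ly6c2 (32.6 to 541.0 CPM per kb) and Ly6a (40.4 to 259.3 CPM per kb) followed, and their order was not the same in all samples. Ly6c2 was above Ly6a in the 3 Asxl2-/- libraries and in control replicate 2, and below it in control replicates 1 and 3, so these neighbours cannot be ordered beyond their spread. The other 4 lay lower, with Ly6d at 2.35 to 13.6, Ly6k at 1.47 to 12.1, Ly6c1 at 0.489 to 4.34 and Ly6i at 0.242 to 5.26 CPM per kb, and their ranges overlapped. The level of Ly6e relative to Ly6a per kb was 5.71 to 7.70 in the 3 Asxl2-/- libraries and control replicate 1, and 2.51 and 2.77 in control replicates 2 and 3. Summed over the 7 members, the level was 909.5 to 1085 CPM in Asxl2-/- cells and 782.2, 2192 and 1184 CPM in control replicates 1 to 3, most of it Ly6e.

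The shapes of the transcripts were compared in the 3 libraries that resolve exons, 1 Asxl2-/- and 2 control, which allows no test between the groups. In Ly6a the 603-base exon that holds the end of the transcript took 60.9% of the counts in Asxl2-/- replicate 2 and 61.6% and 59.9% in control replicates 1 and 3. The 95% Wilson intervals were 59.3 to 62.4, 59.5 to 63.6 and 58.7 to 61.0, and they overlapped although the Ly6a level differed 3.65-fold between the controls. In Ly6e the 1413-base last exon took 58.0%, 57.0% and 57.4% in the same libraries, with intervals of 57.6 to 58.5, 56.5 to 57.5 and 56.9 to 57.9, of which the first 2 did not overlap. In Ly6c2 the 591-base exon took 75.3%, 72.6% and 74.1%. Those exons make up 60.2%, 61.9% and 73.8% of the transcript length of Ly6a, Ly6e and Ly6c2, while other exons departed from their length. The 184-base first exon of Ly6a, 18.4% of its length, took 1.85% to 2.60% of the counts, its 117-base exon, 11.7% of the length, took 24.3% to 24.6%, and the 647-base exon of Ly6e, 28.4% of its length, took 8.58% to 9.24%. In Ly6c1 the 596-base exon is 69.0% of the transcript but took only 27.0%, 27.3% and 20.0% of 115, 22 and 105 counts. The other 3 exons of Ly6c1 held 18.2% to 33.3% each. With 44.1 to 125 counts of Ly6c2 for each count of Ly6c1 in a library, and 15.4% of the Ly6c1 windows shared, the part of Ly6c2 reads in the Ly6c1 counts was not tested. These intervals cover counting error only.

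**Figure D3:**
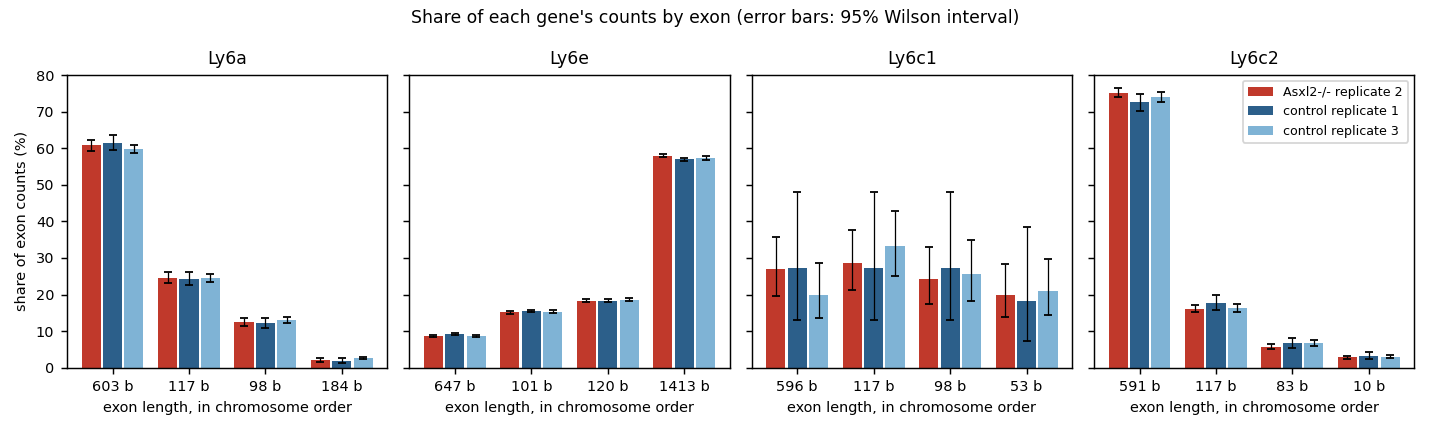
Share of the exon counts (percent, with 95% Wilson intervals) in each exon of Ly6a, Ly6e, Ly6c1 and Ly6c2, named by length and placed in chromosome order, in Asxl2-/- replicate 2 and control replicates 1 and 3. The profiles of Ly6a, Ly6e and Ly6c2 are nearly the same in the 3 libraries, and the 596-base exon of Ly6c1 holds 20.0% to 27.3% of its counts.

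Next, the members were compared with each other over the 6 libraries, in log2 CPM with the file kind removed. The Pearson r with Ly6a was 0.954 for Ly6i, 0.932 for Ly6e, 0.897 for Ly6c1, 0.889 for Ly6c2, 0.688 for Ly6k and -0.720 for Ly6d. Ly6c1 and Ly6c2 gave 0.970, and Ly6e and Ly6c2 gave 0.961. Ly6c1 and Ly6c2 share sequence of read length, and the part of Ly6c2 reads in the value of 0.970 was not tested. These values describe 6 points that share libraries, depth, genotype, sex and the removal of the file kind. An r with Ly6a over 0.8 was found for 19.1% of the 14145 genes tested, the set that holds all members. Among the 10703 genes with a mean log2 CPM of at least 2, which leaves out some members, it was found for 24.0%. The genes most like Ly6a in this measure were Psmb1 (0.9993), a proteasome subunit, Sar1a (0.9978), a GTPase of vesicle export from the endoplasmic reticulum, Dnajc7 (0.9978), a co-chaperone, Bst2 (0.9976), the interferon-induced antiviral protein tetherin, and Mesdc2 (0.9968). The least alike were Pisd-ps1 (-0.9993), Zfp839 (-0.9978) and C030034L19Rik (-0.9952). Their CPM moved less than that of Ly6a. Bst2 was at 69.8, 122.5 and 72.4 CPM in Asxl2-/- and at 102.1, 150.1 and 182.2 CPM in control replicates 1 to 3, and its log2 fold change was -0.64 (SE 0.271, edgeR adjusted p = 0.188).

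Since Ly6a, Ly6e and the Ly6c genes respond to interferon, receptors and signalling proteins of that pathway and other target genes were examined. Of 15 receptor and signalling genes, 0 passed the threshold, against 2.34% of all genes tested. At an unadjusted p under 0.05, 4 were lower in Asxl2-/- cells, as were 12.6% of all genes tested. The median log2 fold change of the list was -0.20. Among its most abundant genes were Jak1, the kinase shared by both receptors, and Irf8, a transcription factor of monocyte and dendritic cell development. Irf8 was at 121.8, 123.2 and 87.3 CPM in Asxl2-/- and at 120.4, 522.7 and 168.1 CPM in control cells (-1.27, SE 0.452, edgeR adjusted p = 0.143). Jak1 lay between 261.0 and 343.5 CPM in all libraries (0.08, SE 0.094, edgeR adjusted p = 0.627). The receptor subunit Ifngr1, named for comparison after its values were seen, lay between 162.1 and 200.7 CPM.

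Of 21 interferon target genes, 0 passed the threshold, against 2.34% of all genes tested. At an unadjusted p under 0.05, 7 were lower and 1 was higher, against 1786 (12.6%) and 2126 (15%) of the 14145 genes tested. The median log2 fold change was -0.35. The summed level of the list was 652.1, 837.0 and 1014 CPM in Asxl2-/- replicates 1 to 3, and 678.5, 2581 and 1771 CPM in control replicates 1 to 3. Control replicate 1 thus lay at the low end, with the Asxl2-/- libraries, as it did for Ly6a. The most abundant targets were Gbp2 and Gbp3, guanylate-binding proteins of cell-autonomous defence, and Iigp1, an immunity-related GTPase. Gbp2 was at 57.7, 121.6 and 192.9 CPM in Asxl2-/- and at 97.3, 828.6 and 566.7 CPM in control replicates 1 to 3 (log2 fold change -2.09, SE 0.764, edgeR adjusted p = 0.150). Iigp1 was at 49.9, 85.6 and 229.4 CPM and at 62.1, 720.0 and 330.8 CPM (-1.78, SE 0.790, edgeR adjusted p = 0.203), and Gbp3 at 88.9 to 136.5 CPM and at 106.1, 287.8 and 243.2 CPM (-0.85, SE 0.379, edgeR adjusted p = 0.204). These 3 genes, like Ly6a, were highest in control replicate 2, as were 12 of the 21 and 19.2% of all genes tested. The other targets were highest in Asxl2-/- replicate 1 (5 genes) or control replicate 3 (4 genes). Over the list, 10 of 21 genes had an r with Ly6a over 0.8, and so did 8 of the 15 signalling genes. Of the 14145 genes tested, 19.1% did.

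**Figure D4:**
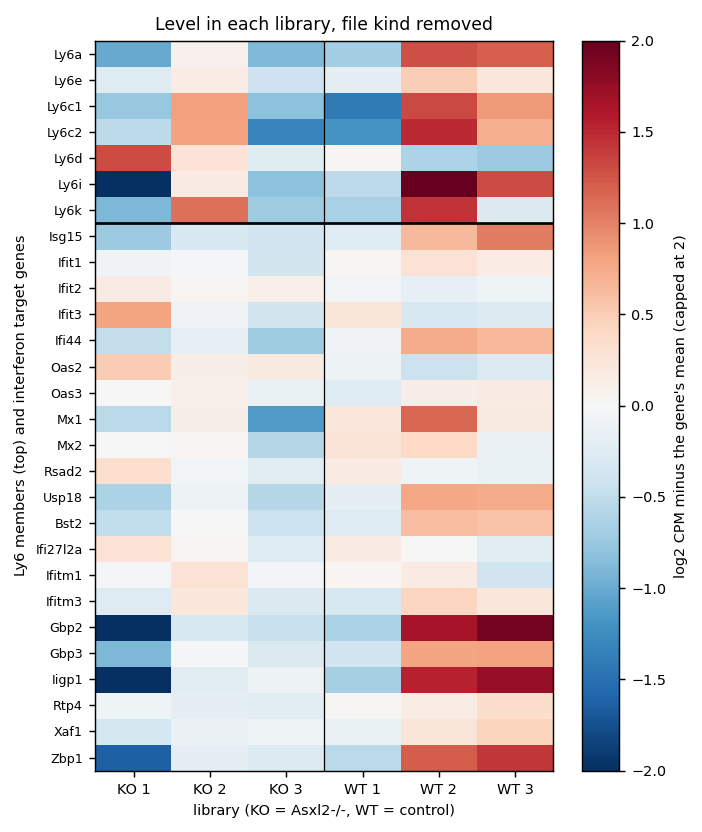
Level of each Ly6 gene (above the line) and each of 21 interferon target genes in the 6 libraries, as log2 CPM with the file kind removed minus the mean of the gene, with colours capped at 2 in either direction. Ly6a, Ly6e, Ly6c1, Ly6c2 and Ly6i, and Gbp2, Gbp3, Iigp1 and Zbp1 among the targets, are above their mean in control replicates 2 and 3 and below it in control replicate 1. Not all targets do so: Rsad2 and Ifi27l2a run the other way in the controls, and Ifit2 and Oas2 are below their mean in every control.

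Markers of other cells moved with the Ly6c values in some libraries. The summed level of 14 myeloid marker genes was 4649, 6760 and 2538 CPM in Asxl2-/- replicates 1 to 3, and 2601, 8259 and 5047 CPM in control replicates 1 to 3, with none of them at 0 in all libraries. Most of this sum was Mpo, at 3031, 4732 and 1749 CPM in Asxl2-/- and 1850, 5506 and 3628 CPM in control replicates 1 to 3. Like the sum, Ly6c2 was highest in control replicate 2 and low in control replicate 1 and Asxl2-/- replicate 3. Of the 14 genes, 8 were highest in control replicate 2, but 5 (S100a8, S100a9, Ngp, Ltf and Camp) were highest in Asxl2-/- replicate 1. Over all 14145 genes tested, 2712 were highest in control replicate 2 and 3430 in Asxl2-/- replicate 1. The list holds monocyte genes such as Ccr2, the receptor that brings monocytes out of the marrow, and Csf1r, the receptor for macrophage colony-stimulating factor, both named after their values were seen. Ccr2 was at 48.7, 32.3 and 27.0 CPM in Asxl2-/- and at 23.8, 160.6 and 31.9 CPM in control replicates 1 to 3, and Csf1r at 33.0, 28.5 and 14.3 CPM and at 13.3, 73.4 and 27.5 CPM. The neutrophil granule genes Ngp and Ltf were the 2 of the 14 that rose in Asxl2-/- cells, as did 2.04% of all genes. Their log2 fold changes were 3.62 (edgeR adjusted p = 0.0444) and 3.52 (0.0405). The endothelial list was at 431.9 to 741.9 CPM in Asxl2-/- and 315.9 to 469.7 CPM in control cells, while its defining genes Cdh5 and Kdr were at 1.15 CPM or less and Cldn5 and Sox17 did not pass the filter. The T and NK list was at 151.6 to 218.8 CPM in Asxl2-/- and 149.8 to 181.7 CPM in control cells. The erythroid list was at 1555 to 2631 CPM in Asxl2-/- and 3233 to 5269 CPM in control cells, and the stem and multipotent progenitor list at 1302 to 1722 CPM and 1035 to 1352 CPM. The part of these cells in the Ly6 values was not tested.

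The other genes of the Ly6 superfamily showed no difference past the threshold. Of 20 further Ly6 genes of the chromosome 15 cluster that were listed, 11 were matched by symbol and the others were not analysed here, and 3 passed the filter on low counts. These 3 were 9030619P08Rik at 6.57 to 15.9 CPM (log2 fold change 0.38, SE 0.385), Lynx1, a modulator of nicotinic acetylcholine receptors, at 0.639 to 2.73 CPM (0.23, SE 0.670), and Gml at 0 to 0.401 CPM (-0.90, SE 0.999), with edgeR adjusted p-values of 0.554 or more. Of 18 genes of the Ly6/uPAR superfamily on other chromosomes, 5 passed the filter and 0 were called, against 2.34% of all genes tested. The most abundant were Cd59a, a GPI-anchored inhibitor of complement, Plaur, the urokinase receptor, and Cd59b. Cd59a was at 12.2 to 18.8 CPM in Asxl2-/- and 7.33 to 9.77 CPM in control cells (0.73, SE 0.245, edgeR adjusted p = 0.132). Plaur was at 6.38 to 10.9 CPM and 5.07 to 6.12 CPM (0.71, SE 0.184, edgeR adjusted p = 0.0888), and Cd59b at 0.811 to 0.923 CPM and 0.695 to 1.25 CPM (-0.06, SE 0.357, edgeR adjusted p = 0.937). For Cd59a and Plaur the groups were apart in CPM, with the Asxl2-/- samples higher, as the groups were apart in either direction for 24.8% of all genes. Control replicate 2 was the highest library for 0 of these 3 cluster genes and for 1 of these 5 genes elsewhere. It was the highest for 19.2% of all genes tested.

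Genes of the machinery that builds the GPI anchor and attaches it to proteins such as Sca-1 had small log2 fold changes between the groups. All 27 genes of the list passed the filter, and 0 were called, against 2.34% of all genes tested. Their log2 fold changes lay between -0.34 and 0.34, with a median of -0.03. The most abundant were Pigt and Pigq, subunits of the transamidase and of the first enzyme of the pathway, and Pign, which adds a side group to the anchor. Pigt was at 127.3 to 181.2 CPM in Asxl2-/- and 149.5 to 183.3 CPM in control cells (-0.09, SE 0.090, edgeR adjusted p = 0.538). Pigq was at 107.1 to 124.1 CPM and 133.7 to 168.6 CPM (-0.34, SE 0.127, edgeR adjusted p = 0.158), and Pign at 100.8 to 102.2 CPM and 73.3 to 83.7 CPM (0.34, SE 0.081, edgeR adjusted p = 0.0771). For 2 of the 27 genes the groups were apart in CPM, Pigq lower and Pign higher in Asxl2-/- cells. They were apart for 24.8% of all genes. With the file kind removed the groups stayed apart for both, and were also apart for Pigu, Pigw, Gpaa1, Dpm2 (lower), Pigv and Pigx (higher). By that measure 44.4% of all genes were apart.

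Finally, the genes around the cluster were compared with the members. The listed Ly6 genes of chromosome 15 span 74714839 to 75598213 on mm10 (883.4 kb). The nearest tested genes below the cluster were Ptp4a3, Bai1, Arc, Jrk and 4933427E11Rik, with log2 fold changes of -0.22 to 1.5 and edgeR adjusted p-values of 0.0958 or more. Those above it were Zfp41, Top1mt, Rhpn1, Zc3h3 and Gsdmd, the pore-forming protein of pyroptosis, at -0.05 to 0.42 (adjusted p of 0.122 or more by edgeR). Within the cluster, Them6 and Hemt1 had log2 fold changes of -0.33 and -1.55, and 0 of these 12 genes were called, against 2.34% of all genes tested. The negative values of larger size belonged to Ly6i and Ly6a, whose lowest coordinates lie 15.1 kb apart, and to Hemt1 at a mean of 0.343 CPM, while Ly6e, 39.8 kb from Ly6a, was at -0.35. The abundant neighbours Gsdmd and Ptp4a3 had 1.16 and 0.798 times the CPM of control replicate 1 in control replicate 2, compared with 6.42 times for Ly6a. Over these 12 genes the ratio ran from 0.226 for Bai1, at a mean of 0.405 CPM, to 1.59 for Them6, at 39.4 CPM.

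**Figure D5:**
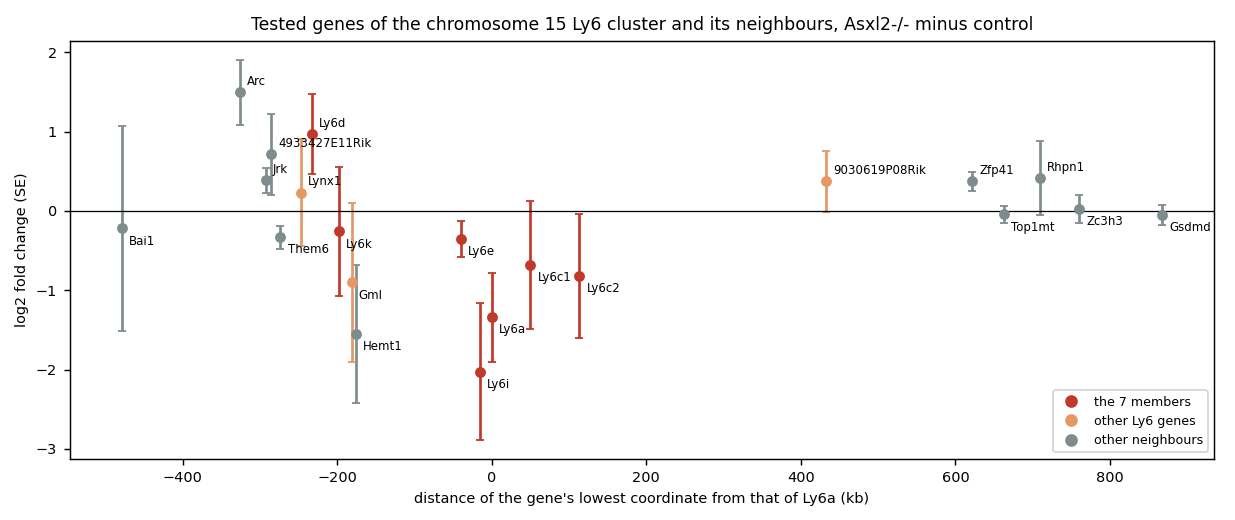
Log2 fold change with SE of the tested genes of the chromosome 15 Ly6 cluster and its neighbours by distance from Ly6a in kb, with the 7 members in red, other Ly6 genes in orange and other genes in grey. Ptp4a3, which lies farthest from Ly6a, is left out (log2 fold change 0.21), and on the high side Top1mt, Zc3h3 and Gsdmd lie between -0.05 and 0.02.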

How the data were processed

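RNA from LSK cells of 3 Asxl2-/- and 3 control samples had been sequenced from poly(A)-selected, unstranded libraries. The authors deposited raw counts of reads on mm10, as 1 count per transcript (33068 lines) or per exon (317548 lines). The submitters' processing notes name STAR, featureCounts and DESeq2, with no versions or roles, and the study's own test was Cuffdiff. Groups and replicate numbers came from the titles.

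Each of 24063 symbols was represented by its longest transcript, and exon counts were summed over it. Differences in counts were assessed by quasi-likelihood F tests in edgeR 4.0.16 (R 4.3.3, TMM, filterByExpr), with file kind and group as terms and 3 residual degrees of freedom, two-sided, with Benjamini-Hochberg adjustment over 14145 genes and a threshold of 0.05. SEs were derived from the F statistic. Log2 CPM used a prior count of 2, and the file kind was removed with limma 3.58.1, which makes the SDs somewhat too small. A count of 3, the smallest taken as detectable, is 0.0564 to 0.106 CPM. Sequence work used Python 3.11.15, GENCODE vM1 transcripts (NCBIM37, no coordinates taken) and RefSeq promoters.

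The members and lists were chosen with earlier results of these data known. Named were all members, from each list other than cell type markers the genes called and the 3 most abundant, the 5 genes most and 3 least like Ly6a, the 5 tested neighbours on each side, Asxl2 and sex-linked genes. One gene that this rule names is not reported here. Alternatives were DESeq2 1.42.0, limma-voom, other scalings and filters, no covariate, a replicate block, other transcript or exon choices, either kind of file alone, and omission of each library.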

Additional observations from a re-analysis of the deposited data

How the results depend on the processing

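The 7 members stayed at 0 called genes in all alternatives but those named here, and the cause of the shifts was not tested. DESeq2 called 2329 of all genes against 331 (1181 raised, 1148 lowered), 1 gene of the wider Ly6 superfamily and 5 interferon genes against 0 each, and library size alone gave 161 genes (142 raised, 19 lowered). Without the covariate for the file kind 1 interferon gene was called. When libraries were left out in turn, all genes called ran from 9 to 1312, members from 0 to 1 (Ly6a without control replicate 1, Ly6k without Asxl2-/- replicate 2), and interferon genes from 0 to 7, and the log2 fold changes ran from -2.24 to -0.43 for Ly6a, -0.83 to 0.14 for Ly6e, -2.17 to 0.73 for Ly6c1, -2.37 to 0.74 for Ly6c2, 0.49 to 1.37 for Ly6d, -3.50 to -0.52 for Ly6i and -2.30 to 1.58 for Ly6k.

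The correlation of deviations of same-numbered samples was 0.294, -0.008 and -0.003 across genes, with the file kind not removed. Each such pair joins a gene-count and an exon-count file, so these values cannot show whether the numbers pair the samples. No pairing was assumed in the main fit. A replicate block added to the file kind, which leaves 1 residual degree of freedom, called 5179 genes (36.6%, 2767 raised and 2412 lowered), with 5 members (Ly6a, Ly6e, Ly6c2, Ly6d and Ly6i), 4 genes of the wider superfamily and 19 interferon genes, and Ly6a was at -1.21 (edgeR adjusted p = 2.12e-14). The block without the file kind called 2 interferon genes and 0 members. Not every sample correlated best with its own number.

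Ly6a was -2.24 in gene-count files alone and -0.16 in exon-count files alone. Signs turned for Ly6k with limma-voom (0.41) and without Asxl2-/- replicate 1 (0.26), Asxl2-/- replicate 3 (0.21) or control replicate 2 (1.58), and without control replicate 2 also for Ly6e (0.14), Ly6c1 (0.73) and Ly6c2 (0.74). In exon-count files alone they turned for Ly6e (0.14), Ly6c1 (1.10), Ly6c2 (1.02) and Ly6k (1.57). Depth limits Ly6i and Ly6c1, with as few as 6 and 22 counts in a library.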
